A study of Mus musculus with 5 samples.

Results

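Cd40, Cd83, Relb, Nfkb1, Nfkb2, Il12b, Fscn1 and Il4i1 were followed through the cells of MC38 tumors. These 8 genes of CD40 signaling, NF-kB and dendritic cell (DC) maturation were taken by name from the 33696 genes counted in the tumor matrices, and all 8 were found. They and the gene lists used below were chosen with earlier results of these data known, so their shares beside all genes are description. Male wild-type C57BL/6J mice, 8 to 10 weeks old, received MC38 cells under the skin. MC38 is a mouse colorectal adenocarcinoma line. The mice were given isotype antibody or immune checkpoint inhibition (CPI, antibodies to PD-1 and CTLA4 together) at days 3, 6 and 9, then vehicle or 20 mg/kg of ABT-317, an inhibitor of the kinase JAK1, on day 12, and tumors were taken on day 15. The sequencing methods of the paper count these days from implantation. Its figure of the MC38 study counts them from enrollment, when tumors had reached a set volume. The 4 treatments were isotype, CPI, isotype + ABT-317 and CPI + ABT-317. Live CD45+ and CD45- cells were sorted apart, labeled with hashtag antibodies (1 per treatment and reaction in the key), mixed in equal parts and loaded as 2 reactions of 60000 cells, so each treatment has 2 samples, 1 per reaction. Tumors of 3 mice were taken in each group, and a treatment had a different hashtag in each reaction, but the key gives no mouse for a hashtag. Whether the reactions hold cells of different mice is not given in the sources used here, so p-values measure the spread between 2 droplet reactions, and the equal mixing and the sort set the shares of cell classes.

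CD40 is a receptor of the TNF receptor family on antigen-presenting cells, and its ligand CD40L is carried by activated T cells. Engaged CD40 recruits TRAF adaptors and starts both branches of NF-kB: the canonical branch, which uses the p50 subunit made from Nfkb1, and the noncanonical branch, in which the Nfkb2 product p100 is cut to p52 and pairs with RelB. A DC that matures turns on these genes together with CD83, the chemokine receptor CCR7, the actin-bundling protein fascin (Fscn1), the p40 subunit shared by IL-12 and IL-23 (Il12b) and the secreted amino acid oxidase IL4I1.

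On GRCm38, Cd40 lies on chromosome 2 (165055627 to 165072948), Cd83 on 13 (43784775 to 43803132), Relb on 7 (19606217 to 19629438, minus strand), Nfkb1 on 3 (135584655 to 135691547, minus strand), Nfkb2 on 19 (46304320 to 46312385), Il12b on 11 (44400063 to 44414033), Fscn1 on 5 (142960343 to 142973185) and Il4i1 on 7 (44816387 to 44840809). All 8 are protein-coding. RefSeq promoter windows of 300 bases (250 before the start and 50 after it, GRCm38.p6) were at hand for 4 of the 8: Nfkb2, Il12b, Fscn1 and Il4i1. They were searched on both strands for a strict 10-base kappa-B consensus of the sites that NF-kB dimers bind, which was in 8.46% of 32841 such windows. Sites that depart from this consensus were not searched for. The first window of Nfkb2 held 3 matches, starting 39, 38 and 11 bases before the start, of which the first and second overlap. Its other windows, which overlap each other and share 1 match, held 2 and 1. The windows of Il12b, Fscn1 and Il4i1 held 0 matches, which does not mean that they lack NF-kB sites. The windows of Nfkb2 (chr19:46304487-46304786, plus strand) and Il12b (chr11:44399813-44400112, plus strand) are shown because they are the subunit gene with matches and the cytokine gene that parted mature DC-like from other DC-like cells. Capitals mark the matches.
Nfkb2: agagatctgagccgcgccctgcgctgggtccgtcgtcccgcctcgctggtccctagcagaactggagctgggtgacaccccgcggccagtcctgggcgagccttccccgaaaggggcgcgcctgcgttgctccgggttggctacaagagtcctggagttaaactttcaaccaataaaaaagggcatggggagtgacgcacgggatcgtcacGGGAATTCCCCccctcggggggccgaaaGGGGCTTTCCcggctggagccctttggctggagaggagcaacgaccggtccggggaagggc
Il12b: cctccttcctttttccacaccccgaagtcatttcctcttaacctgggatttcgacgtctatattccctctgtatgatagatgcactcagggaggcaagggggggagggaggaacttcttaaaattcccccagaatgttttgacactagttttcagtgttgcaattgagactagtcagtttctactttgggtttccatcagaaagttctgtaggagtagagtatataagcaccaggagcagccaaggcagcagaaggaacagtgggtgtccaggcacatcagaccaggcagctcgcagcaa

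The reactions held 37774 and 27582 barcodes with medians of 6785 and 7079 UMIs (unique molecules counted), of which 33762 and 23332 had at least 200 genes and under 10% mitochondrial UMIs. No upper limit was set on genes. Exactly 1 hashtag was called on 15864 and 14303 of these barcodes, several on 16046 and 6996, and none on 1852 and 2033, and barcodes with several were left out of every value given here unless stated. Cells carrying the CPI hashtag were shallow, with medians of 1068 and 1272 genes, against 3773 and 4169 for CPI + ABT-317 and 1949.5 and 2388 for isotype. Passing barcodes of the 2 reactions shared 1068 barcode sequences, none of them DC-like. Clusters were named from fixed markers, with the 8 genes and the CD40 and NF-kB list left out of the clustering. Levels are given in CPM (counts-per-million: the UMIs of a gene scaled to the gene UMIs of the class in 1 reaction), with exact 95% Poisson intervals that cover counting error only.

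The mature DC-like sub-cluster held 33 cells, 18 and 15 per reaction, out of 17716 and 16336 cells with 1 hashtag or none. Of its 10 fixed markers, 9 were detected, Ccr7 at 1912 and 2703 CPM and Ccl22 at 2301 and 2153 CPM, and Lamp3 was at 0 in both reactions. Summed over the 10 markers the level was 7257 and 9734 CPM. The macrophage list of 12 genes summed to 1611 and 615 CPM in these cells. A further 111 DC-like cells, in 2 sub-clusters that took no name, are called other DC-like. The highest marker list of both was that of type 2 conventional DCs (cDC2). The other 3 sub-clusters took the name of a B cell, macrophage or fibroblast list and were left out of both groups, with 73, 26 and 3 cells. The sub-cluster of 73 cells, led by Ly6d, Igkc and Cd79a, also had Clec9a among its top 10 genes, and its levels were 90.1 and 59.6 CPM for Cd40, 328 and 288 CPM for Cd83, and 0 in both reactions for Il12b. At resolution 0.5 a sub-cluster of 19 cells took the name of type 1 conventional DCs (cDC1). Septin3, Clec9a and Ccser1 were among the top 10 genes of both. Other DC-like cells therefore do not stand for all DCs outside the mature group. Outside the DC-like cluster, 8639 cells were macrophage-like.

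The 8 genes were at their highest in mature DC-like cells for all but Cd83 and Nfkb1. In both reactions, 6 of 8 were above their level in every other class, as were 5.1% of all genes, and 7 of 8 were above macrophage-like cells, where 15.2% of all 12948 genes at 10 CPM or more in a class were higher in mature DC-like cells without overlap and 48.1% were lower. The shares of all genes depend on depth too, as given with the gene lists below. Differences between classes rest on 2 reactions and were not tested. Classes also pool treatments in unlike shares. Mature DC-like cells were mostly isotype (9 and 7) or CPI (7 and 7). Macrophage-like cells numbered 3293 and 3766 for isotype and 200 and 194 for CPI. The ratios below thus mix class and treatment. Under isotype alone, with values below, Cd40 was higher in mature DC-like than macrophage-like cells and Cd83 was lower.

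Cd40, the receptor itself, was at 425 CPM (95% interval 272 to 632) and 527 CPM (338 to 785) in mature DC-like cells. It was at 64.6 and 68.3 CPM in macrophage-like cells, 62.0 and 52.2 CPM in other DC-like cells, 12.5 and 4.89 CPM in T-like cells, and 3.26 and 1.67 CPM in fibroblast-like cells. The mature DC-like level was 7.05 times the macrophage-like level (counting interval 5.18 to 9.38). Macrophage-like and other DC-like cells, next in order, did not overlap in their 2 values, but the lowest macrophage-like and highest other DC-like values, 64.6 and 62.0 CPM, were close.

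Cd83, a surface protein that marks maturing antigen-presenting cells, did not follow Cd40. It was at 797 and 703 CPM in mature DC-like cells, 645 and 793 CPM in other DC-like cells, and 654 and 680 CPM in macrophage-like cells. The mature DC-like and other DC-like ranges overlapped, and the ratio of mature DC-like to macrophage-like cells was 1.13 (0.890 to 1.41). T-like cells had 104 and 105 CPM, and fibroblast-like cells 22.1 and 14.5 CPM.

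Among the NF-kB subunits, Relb and Nfkb2 of the noncanonical branch separated mature DC-like cells and Nfkb1 did not. Relb was at 336 and 549 CPM there, against 50.5 and 52.9 CPM in macrophage-like cells, 8.31 times as high (6.02 to 11.2). Nfkb2 was at 124 and 264 CPM against 34.5 and 30.8 CPM, 5.76 times as high (3.45 to 9.04), or 3.60 and 8.56 times in the 2 reactions. Nfkb1 was at 938 and 308 CPM in mature DC-like cells and at 378 and 330 CPM in macrophage-like cells, so the reactions disagreed in direction. One mature DC-like cell held 17 of the 67 Nfkb1 UMIs, or 25.4%. Nfkb1 was found in every class, at 402 and 417 CPM in T-like cells.

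The 3 effector genes had the widest gaps. Il12b was at 1770.0 and 2087 CPM in mature DC-like cells against 36.4 and 45.9 CPM in macrophage-like cells, 45.6 times as high (39.0 to 53.1). Other DC-like cells had 0 Il12b UMIs among 353028, where 3 UMIs would be 8.50 CPM, so mature DC-like cells were at least 225-fold higher. Fscn1 was at 1646 and 2637 CPM against 13.2 and 4.49 CPM in macrophage-like cells, 257 times as high (213 to 309) or 125 and 588 times in the 2 reactions, and its next class was endothelial-like cells at 340 and 416 CPM. Il4i1 was at 283 and 505 CPM against 0.530 and 0.328 CPM, from 39 UMIs against 13, 926 times as high (484 to 1890.0) or 534 and 1539 times in the 2 reactions. With the hashtag that led the next by 1 natural log unit, 16 mature DC-like cells were left, and the ratio to macrophage-like cells was 4.49 for Cd40, 4.40 for Relb, 148 for Fscn1 and 546 for Il4i1. One mature DC-like cell held 14 of the 39 Il4i1 UMIs (35.9%), and one held 39 of the 195 Il12b UMIs (20.0%). Il4i1 was at 0 UMIs in neutrophil-like cells of both reactions. Il12b in neutrophil-like cells was at 108 and 0 CPM, with all 14 UMIs in 1 cell.

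**Figure D1:**
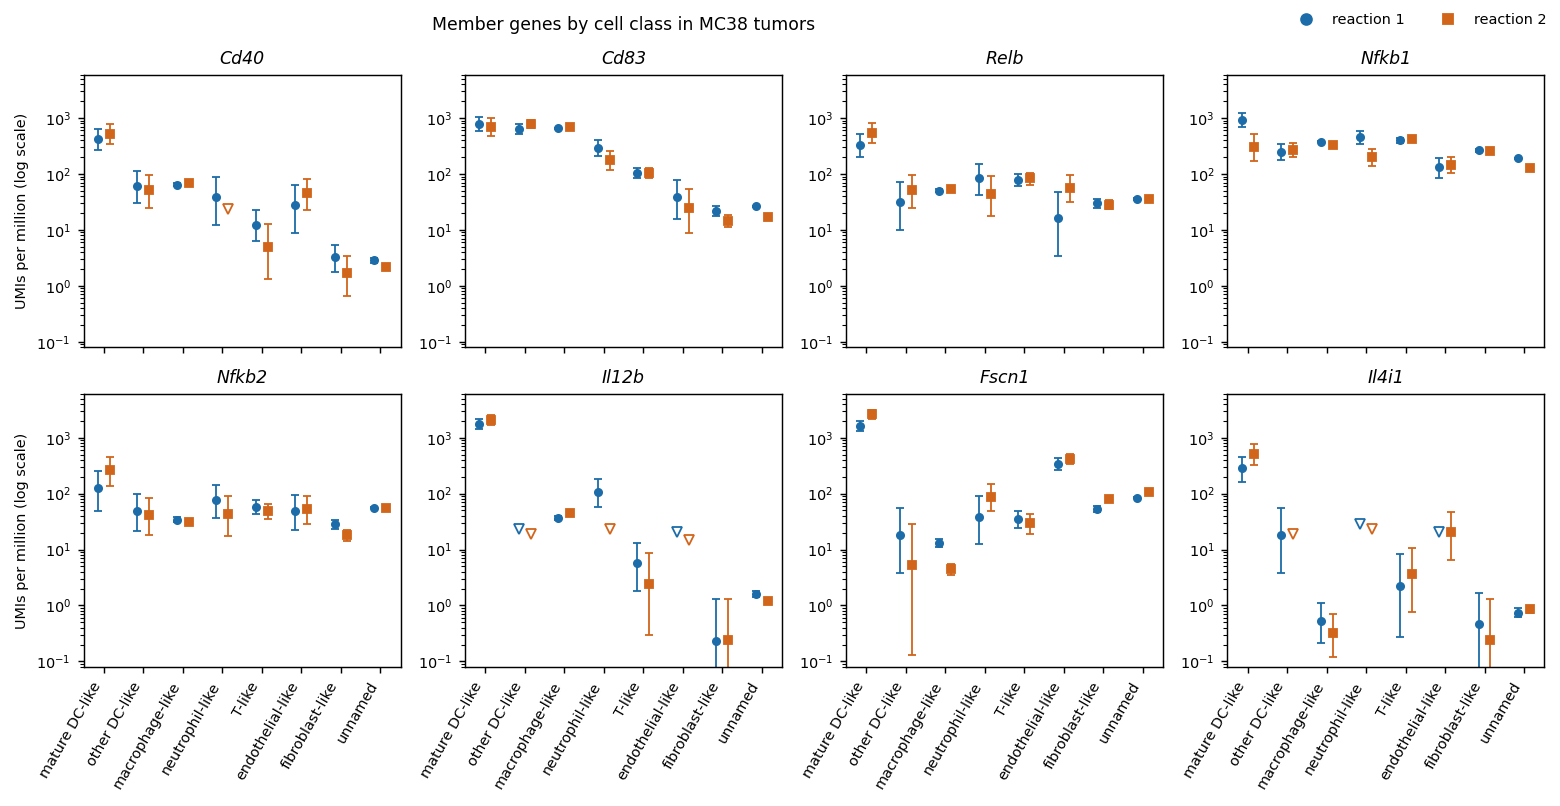
CPM (log scale) of each of the 8 genes in 8 cell classes; circles are reaction 1, squares reaction 2, bars exact 95% Poisson intervals, and open triangles the upper limit where no UMI was counted. Il12b, Fscn1 and Il4i1 stand far above the other classes in mature DC-like cells, while Cd83 is level across mature DC-like, other DC-like and macrophage-like cells.

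Single cells carried the genes together. Of the 33 mature DC-like cells, 32 had a UMI of at least 2 of the 8 genes, 25 (75.8%) of at least 4 and 1 of all 8, and the median was 5 genes. In other DC-like and macrophage-like cells the median was 2 genes, and 4.50% and 6.46% of cells had at least 4. The classes had similar depth, with median UMIs of 2863, 3051 and 3274. With each cell thinned to 1000 UMIs, which could be done for 30, 106 and 8406 cells of these classes, the expected share with a Cd40 UMI was 31.4%, 5.64% and 6.09% (51.5%, 12.6% and 17.98% unthinned). For Il12b it was 44.9%, 0% and 1.65% (57.6%, 0% and 2.43% unthinned). T-like cells had an Il12b share of 0.36% (0.54% unthinned), at a median of 1061 UMIs, and the source of these UMIs was not tested.

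The antibody panel held an antibody to CD40, and its counts did not separate the classes as the RNA did. Per 10000 UMIs of the 122 panel antibodies other than hashtags, CD40 antibody made up 90.9 and 101 in mature DC-like cells, 86.3 and 89.6 in other DC-like cells, and 87.2 and 89.2 in macrophage-like cells. T-like cells, with 12.5 and 4.89 CPM of Cd40 RNA, had 85.4 and 86.6, and fibroblast-like cells 85.5 and 86.7. The 9 isotype control antibodies lay between 7.61 and 36.8 over all classes and reactions. The CD40 antibody spanned 79.4 to 101 per 10000, above the isotype controls also in classes with almost no Cd40 RNA, and whether these counts report CD40 protein was not tested. CD86 antibody, against a costimulatory ligand and picked after its values were seen, was at 75.9 and 88.7 in mature DC-like cells against 43.4 and 44.3 in macrophage-like cells.

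**Figure D2:**
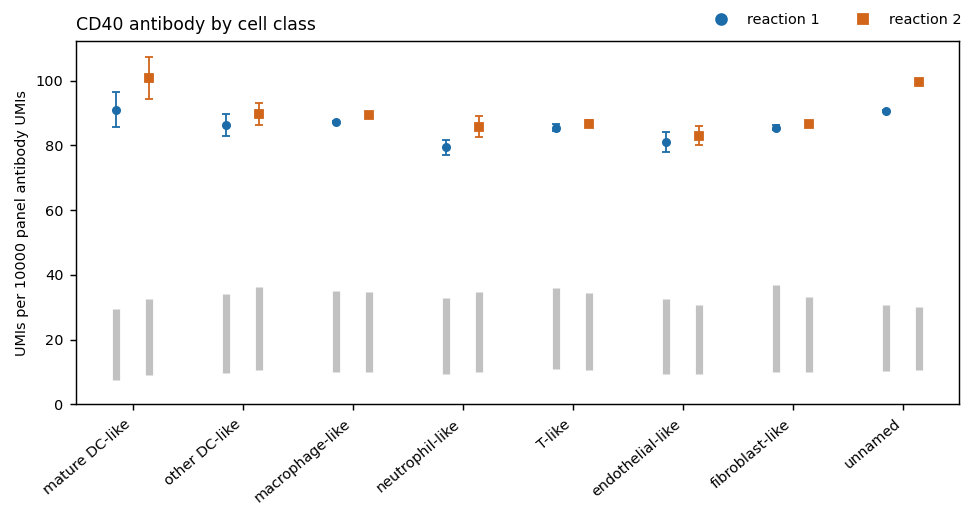
CD40 antibody UMIs per 10000 panel antibody UMIs by cell class (circles reaction 1, squares reaction 2, bars exact 95% Poisson intervals), with gray bars from the lowest to the highest of 9 isotype control antibodies. All classes lie between 79.4 and 101, above the isotype controls and close to each other.

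The other genes of the pathway were read from 2 lists. Of 25 genes of CD40 and NF-kB signaling (TRAF adaptors, kinases, other subunits and inhibitors), 16 were higher in mature DC-like than macrophage-like cells in both reactions without overlap, 2 were lower and 7 overlapped, with a median log2 ratio of 0.70 against -0.19 over all 12948 genes. Of 30 genes of DC maturation, 23 were higher, 4 lower and 3 overlapped, with a median of 2.35. Beside both lists, 15.2% of all 12948 genes were higher without overlap and 48.1% lower. Those genes were at 10 CPM or more in a class, a minimum not set for the list genes. The mature DC-like sums held only 56496 and 45511 UMIs, so a single UMI there exceeds that minimum. Genes with no UMI there count as lower wherever both macrophage-like sums have any. The shares and the median over all genes therefore depend on depth as well. The DC maturation list holds the 10 markers that named the cells, so its count is a description of that choice. The genes outside the 8 whose levels most resembled theirs over 7 named classes and 2 reactions (14 points, log2 of CPM + 1) were Specc1, Bmp2k and Pcgf5, with mean Pearson correlations of 0.74, 0.74 and 0.74 among 12906 genes. The 14 points share 2 libraries and differ in depth.

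Among clusters left unnamed, 2 had high values of single members. A cluster of 604 cells led by Slc8a1, Lrmda and Cadm1, with a median of 1738 UMIs, had Cd83 at 1707 and 1744 CPM, Nfkb1 at 1337 and 1232 CPM and Cd40 at 132 and 276 CPM. Its highest marker list was that of macrophages, with all 12 markers up (mean log2 difference 2.32 from the other cells), and it stayed unnamed because none of them was among its top 10 genes. Its Cd83 and Nfkb1 were above all named classes in both reactions. A cluster of 1241 cells led by Bnc2, Zfpm2 and Magi1 had Nfkb1 at 938 and 1089 CPM with Cd40 at 1.98 and 0 CPM.

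Treatment could be read in mature DC-like cells for isotype (9 and 7 cells) and CPI (7 and 7 cells). CPI + ABT-317 had 1 cell in each reaction and isotype + ABT-317 had 0. With fewer than 20 cells in each sum no test was run. Cd40 was at 241 and 402 CPM under isotype and at 601 and 631 CPM under CPI, without overlap, a ratio of 2.05 (counting interval 1.03 to 4.37). With the hashtag that led the next by 1 natural log unit, 5 and 0 isotype cells and 6 and 2 CPI cells were left, and with the same lead after each hashtag was centred on its low component, 8 and 9 isotype cells and 8 and 6 CPI cells, so the cells compared depend on the hashtag rule. Relb was at 241 and 468 CPM under isotype and 515 and 596 CPM under CPI, a ratio of 1.71 (0.864 to 3.59), and Cd83 at 562 and 602 CPM against 1116 and 701 CPM, a ratio of 1.54 (0.913 to 2.66). The groups of these 3 genes did not overlap, but the share of all genes without overlap here was not computed. With 2 values a group unchanged genes can part too, so no change is read from this. The counting intervals pool the UMIs of both reactions and leave out the spread between cells and mice. Those of Relb and Cd83 hold 1. Il12b was at 1204 and 3078 CPM under isotype and 1373 and 1717 CPM under CPI, and Fscn1 at 1405 and 2476 CPM against 2017 and 2803 CPM, a ratio of 1.36 (1.01 to 1.84). Both overlapped, as did Nfkb1, Nfkb2 and Il4i1, whose ratios of CPI to isotype were 0.802, 1.15 and 1.15. The 2 reactions of isotype differed in Nfkb1 by more than the treatments did, with 22 UMIs (883 CPM) and 1 UMI (66.9 CPM).

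**Figure D3:**
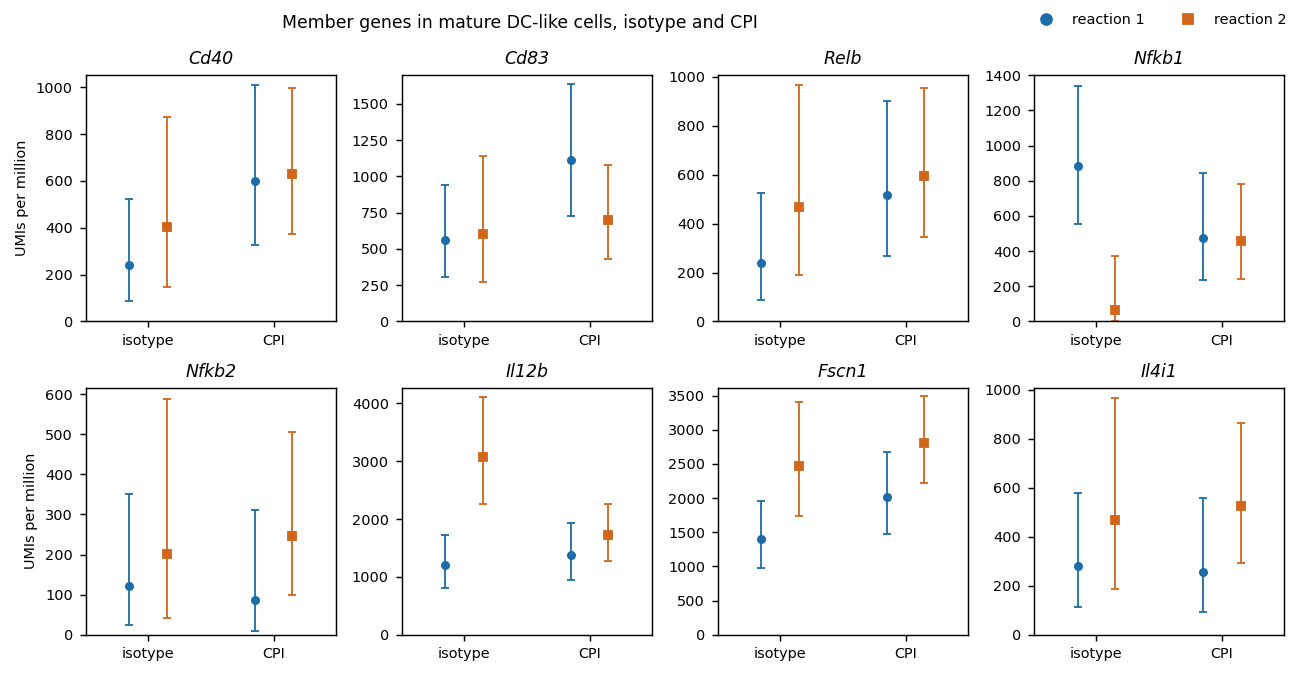
CPM of the 8 genes in mature DC-like cells under isotype (9 and 7 cells) and CPI (7 and 7 cells); circles are reaction 1, squares reaction 2, and bars exact 95% Poisson intervals. Cd40 is higher under CPI in both reactions, and most intervals overlap.

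In macrophage-like cells all 8 sums of treatment and reaction had at least 194 cells, and 8229 genes were tested with edgeR's quasi-likelihood test. Of the 8 genes, 7 passed its filter on low counts, and Il4i1, with 13 UMIs in all, did not. The composition of these cells moved with the hashtag. The CPI hashtag was called on 936 of 1115 T-like and 1538 of 1885 fibroblast-like cells but on 394 of 8639 macrophage-like cells, and its low and high components lay close together, at means of 2.93 and 4.02 (natural log counts, SD of the high component 1.28) in reaction 1 and 2.41 and 3.64 (1.39) in reaction 2. A difference between CPI and the other groups and a difference between cells that took up the hashtag differently cannot be told apart. The other hashtags were uneven over classes too. Macrophage-like cells numbered 3293 and 3766 under isotype, 256 and 217 under isotype + ABT-317, and 277 and 367 under CPI + ABT-317. T-like cells numbered 47 and 35, 2 and 2, and 10 and 17, in that order. Every comparison between treatments therefore carries this limit. Under CPI, 179 of 200 and 170 of 194 cells (89.5% and 87.6%) belonged to a cluster led by Ccl6, Lyz1 and Wfdc17 (the Ccl6 cluster), against 6.14% and 4.90% under CPI + ABT-317, 0.698% and 0.531% under isotype, and 0.391% and 0.461% under isotype + ABT-317. The rest came from a cluster led by Ccl12 and C1qa (the C1q cluster) and one led by Mmp12 and Arg1 (the Arg1 cluster). The monocyte list of 7 genes summed to 301 and 344 CPM under CPI against 212 and 208 CPM under isotype, the mature DC list to 595 and 611 CPM against 294 and 328 CPM (Lamp3 at 0 in all 8 sums), the list of general DC genes to 6426 and 7265 CPM against 4682 and 5602 CPM, the neutrophil list to 84.7 and 60.1 CPM against 31.4 and 21.9 CPM, and the T cell list to 9.97 and 9.62 CPM against 3.68 and 2.43 CPM. The pDC list was lower, at 496 and 486 CPM against 1063 and 1123 CPM, as was the B cell list, at 39.9 and 16.8 CPM against 74.3 and 87.5 CPM. In each CPI sum, 5 of the 8 T cell markers and 3 of the 10 mature DC markers had no UMI. Of the 6 B cell markers, 4 and 5 had none. These list sums therefore rest on few genes and are not read as shares of cell types. The part of such cells in the results was not tested. Median UMIs were 1769 and 1865 under CPI against 3011 and 3696 under isotype. The calls that involve CPI are therefore also given over the C1q and Arg1 clusters alone, which leaves 21 and 24 CPI cells, and where 222 genes were called between CPI and isotype and 26 between CPI + ABT-317 and CPI.

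Between CPI and isotype, 5 of the 7 genes passed at an adjusted p below 0.05, beside 22.8% of all genes tested. Higher under CPI were 4 of them, where 12.5% of all genes were, and 1 was lower, where 10.3% were. Their median log2 fold change was 0.70 against -0.02 over all genes.

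Nfkb1 was at 805 and 700.0 CPM under CPI against 362 and 317.4 CPM under isotype. Both CPI sums were above all 6 others, and the log2 fold change was 1.14 ± 0.13 (SE, n = 2 sums a group, edgeR adjusted p = 3.2e-05). Nfkb2 was at 84.7 and 74.6 CPM against 30.01 and 28.6 CPM, and it rose by 1.44 ± 0.24 on the log2 scale (edgeR adjusted p = 0.00072). These are differences between macrophage-like cells of mostly different clusters. Over the C1q and Arg1 clusters alone Nfkb1 differed by 0.02 (edgeR adjusted p = 0.98) and Nfkb2 by 1.35 (edgeR adjusted p = 0.22), with a median of -0.30 over all genes.

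Cd40 was at 92.2 and 103 CPM under CPI against 57.6 and 62.7 CPM under isotype. The groups did not overlap, and the log2 fold change was 0.70 ± 0.21 (edgeR adjusted p = 0.027). It was 1.15 over the C1q and Arg1 clusters alone (edgeR adjusted p = 0.16), and with the hashtag that led the next by 1 natural log unit it was 0.31 (edgeR adjusted p = 0.28). The call was also lost without the first isotype sum, the first CPI sum or the second CPI sum, with log2 fold changes of 0.60, 0.81 and 0.55 (edgeR adjusted p = 0.085, 0.074 and 0.26), and without the count filter (0.55, edgeR adjusted p = 0.069). Relb was at 74.7 and 77.0 CPM against 48.4 and 52.2 CPM, a log2 fold change of 0.59 ± 0.19 (edgeR adjusted p = 0.042). The Relb call was lost without any 1 of the 8 sums, with DESeq2 (adjusted p = 0.096), over the C1q and Arg1 clusters (0.05, edgeR adjusted p = 0.99), without the count filter (0.44, edgeR adjusted p = 0.25) and with the hashtag lead before and after centring (0.39 and 0.48, edgeR adjusted p = 0.17 and 0.093).

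Cd83 moved the other way. It was at 503 and 431 CPM under CPI against 681 and 712 CPM under isotype, without overlap, and it fell by 0.58 ± 0.14 on the log2 scale (edgeR adjusted p = 0.0093). The call held over the C1q and Arg1 clusters alone, at -1.41 (edgeR adjusted p = 0.013) against the median of -0.30, but the CPI sums there rest on 26 and 9 Cd83 UMIs and differed between the reactions, at 472 and 160 CPM against 681 and 712 CPM under isotype. It was lost without the second isotype sum or the second CPI sum, at -0.52 and -0.53 (edgeR adjusted p = 0.061 and 0.090). Il12b was at 52.3 and 0 CPM against 36.4 and 48.0 CPM, and Fscn1 at 24.9 and 4.81 CPM against 12.9 and 4.59 CPM. Neither passed (edgeR adjusted p = 0.56 and 0.57).

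**Figure D4:**
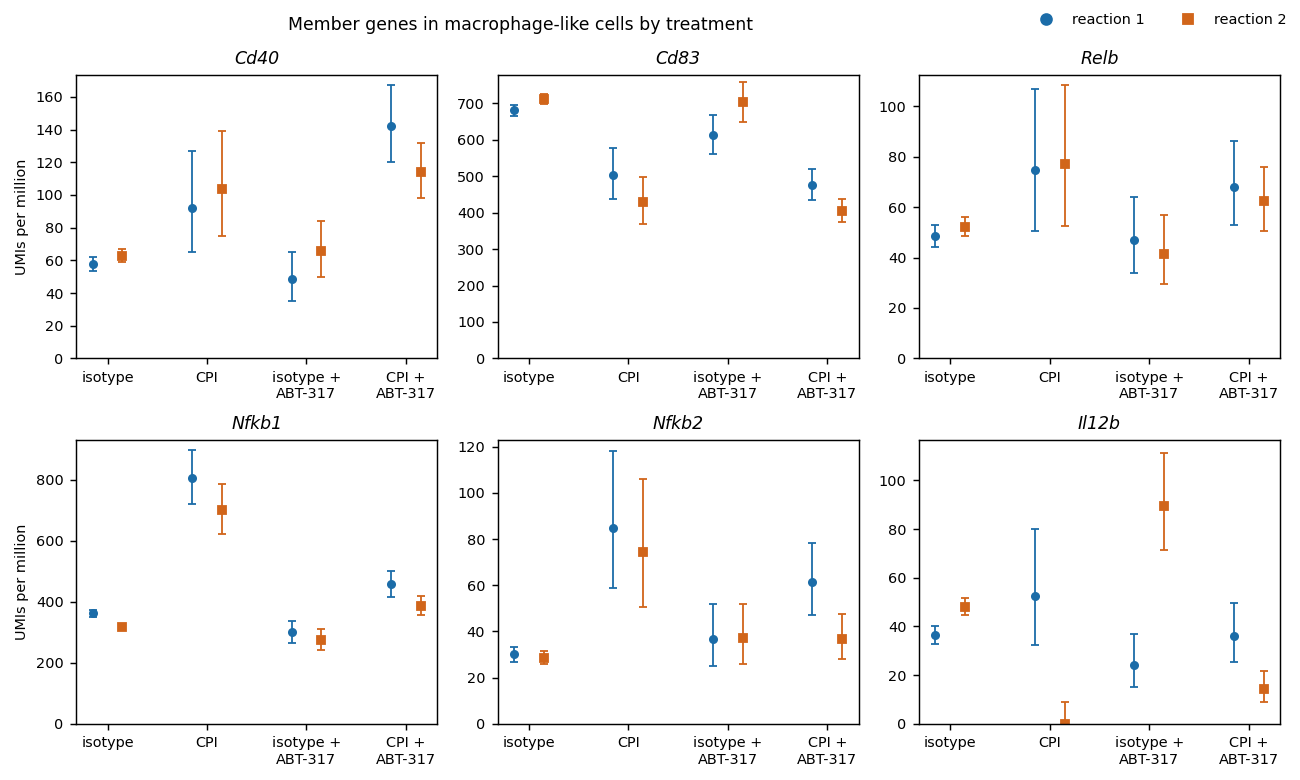
CPM of 6 of the genes in macrophage-like cells under the 4 treatments; circles are reaction 1, squares reaction 2, and bars exact 95% Poisson intervals. Cd40 is highest and Cd83 lowest in the 2 groups given CPI, and Nfkb1 and Nfkb2 are highest under CPI alone.

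Adding ABT-317 to CPI went with lower Nfkb1. It was at 456 and 387 CPM under CPI + ABT-317 against 805 and 700.0 CPM under CPI, without overlap, and fell by 0.84 ± 0.13 on the log2 scale (edgeR adjusted p = 0.001), 1 of 7 genes beside 14.5% of all genes called (7.51% lower and 6.95% higher). The difference was 0.25, in the opposite direction, over the C1q and Arg1 clusters alone (edgeR adjusted p = 0.72), beside a median of 0.28 over all genes. Marker lists differed between these groups too. The mature DC list summed to 392.2 and 430 CPM under CPI + ABT-317 against 595 and 611 CPM under CPI, the neutrophil list to 26.3 and 28.1 CPM against 84.7 and 60.1 CPM, and the pDC list to 1274 and 1376 CPM against 496 and 486 CPM. The T cell list was at 3.89 and 3.12 CPM against 9.97 and 9.62 CPM, and the cDC1 list at 230 and 261 CPM against 154 and 192 CPM. Of the 8 T cell markers, 5 and 4 had no UMI under CPI + ABT-317 and 5 had none in each CPI sum. No difference is read from that list. Of 5 tested cDC2 markers 3 were called lower, beside 7.51% of all genes. The part of such cells in these values was not tested there. Nfkb2 was at 61.3 and 36.8 CPM against 84.7 and 74.6 CPM, a log2 difference of -0.74 ± 0.26 (edgeR adjusted p = 0.070) that passed with the reaction as a block (-0.75, edgeR adjusted p = 0.024). Over those clusters alone it was -0.69 (edgeR adjusted p = 0.61). Cd40 was at 142 and 114 CPM under CPI + ABT-317, above the 92.2 and 103 CPM under CPI, with a log2 difference of 0.37 ± 0.21 that did not pass (edgeR adjusted p = 0.27). For Cd83, Relb, Il12b and Fscn1 the adjusted p was 0.76, 0.54, 0.95 and 0.75 in edgeR. The differences of Cd40, Cd83 and Relb reversed direction over the C1q and Arg1 clusters alone. Cd40 was there at 132 and 114 CPM under CPI + ABT-317 against 218 and 107 CPM under CPI, the latter from 12 and 6 UMIs.

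Between isotype + ABT-317 and isotype, 0 of the 7 genes passed, beside 0.0486% of all genes (4 genes, 406 at an unadjusted p below 0.05, 118 with the reaction as a block and 13 with DESeq2). The lowest unadjusted p of the 7 was that of Nfkb1, at 299 and 274 CPM against 362 and 317.4 CPM (log2 difference -0.28 ± 0.13, edgeR adjusted p = 1.0). The change with ABT-317 under CPI minus that under isotype was -0.56 ± 0.19 for Nfkb1 and -1.04 ± 0.34 for Nfkb2 on the log2 scale. Neither passed (edgeR adjusted p = 0.099 and 0.094, beside 6.46% of all genes called, 3.40% higher and 3.06% lower, 532 genes or 1189 with the block), and both did with the reaction as a block (adjusted p = 0.0011 and 0.024 in edgeR). In the C1q and Arg1 clusters they were 0.52 and -0.99 (edgeR adjusted p = 0.48 and 0.54). None of the 7 passed without the block.

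The 2 groups given ABT-317 both came mostly from the C1q and Arg1 clusters, with median UMIs of 3398 and 4075 under CPI + ABT-317 and 3049.5 and 3855 under isotype + ABT-317, and comparing them was decided after the data were seen. They differed in composition too: the Ccl6 cluster held 6.14% and 4.90% of cells under CPI + ABT-317 against 0.391% and 0.461%, and the monocyte list summed to 338 and 309 CPM against 196 and 155 CPM, with 3 of its 7 genes called higher. The list of 5 general DC genes summed to 5789 and 6942 CPM against 4065 and 4661 CPM, with 1 of its 3 tested genes called higher. Flt3, Zbtb46 or both had no UMI in each of these sums, so this list is not read as a share of DCs. Their part in these values was not tested. Cd40 was at 142 and 114 CPM under CPI + ABT-317 against 48.3 and 65.5 CPM under isotype + ABT-317. Its groups did not overlap, and it rose by 1.19 ± 0.20 on the log2 scale (edgeR adjusted p = 0.0048), beside 2.42% of all genes called, 1.97% higher and 0.450% lower (199 genes, or 649 with the reaction as a block). Without the first isotype + ABT-317 sum the call was lost (0.96, edgeR adjusted p = 0.12). The log2 fold change was 1.12 over the C1q and Arg1 clusters alone (edgeR adjusted p = 0.0061), and in the C1q cluster Cd40 was at 126 CPM in 454 cells against 50.3 CPM in 400 cells. In the Arg1 cluster it was at 104 and 109.6 CPM (155 cells) against 116 and 73.1 CPM (71 cells), and the groups overlapped. Nfkb1 rose by 0.59 ± 0.13 (edgeR adjusted p = 0.035), from 299 and 274 CPM to 456 and 387 CPM. That call was lost over the C1q and Arg1 clusters (0.55, edgeR adjusted p = 0.059), with the hashtag lead before and after centring (0.38 and 0.47, edgeR adjusted p = 0.28 and 0.080), at resolution 0.5 (0.60, edgeR adjusted p = 0.062), and without any 1 of the 4 sums compared or the second CPI sum. Cd83 was at 476 and 405 CPM against 613 and 703 CPM, a log2 difference of -0.55 ± 0.14 that did not pass (edgeR adjusted p = 0.056) and passed with the reaction as a block (adjusted p = 2e-05 in edgeR). In the C1q cluster Cd83 was at 499 CPM against 689 CPM.

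**Figure D5:**
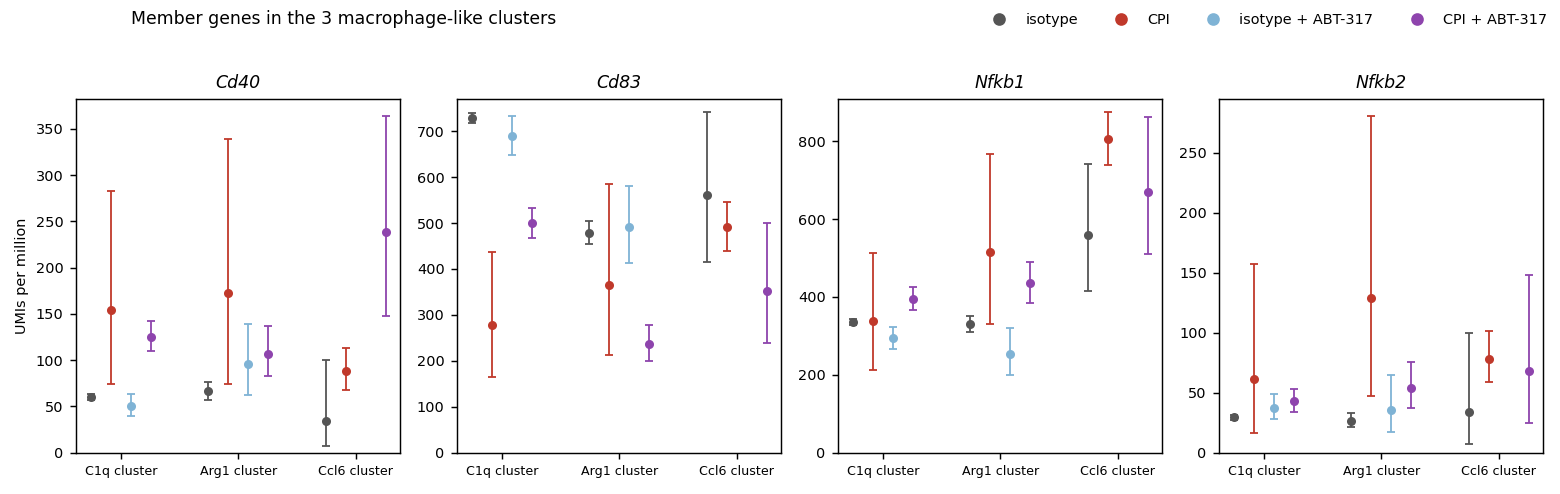
CPM of 4 of the genes in the 3 macrophage-like clusters under each treatment, both reactions together, for points of at least 10 cells; bars are exact 95% Poisson intervals. In the C1q cluster Cd40 is higher and Cd83 lower in the 2 groups given CPI (26 cells under CPI alone), and Nfkb1 is highest in the Ccl6 cluster, which holds most CPI cells.

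Of the 25 genes of the signaling list, 23 were tested in macrophage-like cells. Between CPI and isotype, 5 were higher, 1 was lower and 17 did not pass (26.1% called, near the 22.8% of all genes), with a median log2 fold change of 0.46 against -0.02. The calls with the lowest p were Tnfaip3, the NF-kB inhibitor A20 (0.97 ± 0.12, edgeR adjusted p = 8.4e-05), the adaptor Traf5 (2.19 ± 0.29, 0.00013), the subunit Rel (0.86 ± 0.14, 0.00057) and the adaptor Traf1 (1.18 ± 0.21, 0.0014). Over the C1q and Arg1 clusters alone their log2 fold changes were 0.19, 1.10, 0.11 and 0.80, and none passed (edgeR adjusted p = 0.76, 0.66, 0.91 and 0.37). Between CPI + ABT-317 and CPI, 1 was higher, 3 were lower and 19 did not pass (17.4% called, near the 14.5% of all genes). These were Tnfaip3 (-0.94 ± 0.13, edgeR adjusted p = 0.00034), Traf5 (-2.12 ± 0.35, 0.0012), Rel (-0.82 ± 0.15, 0.0022) and the adaptor Traf3, a brake on the noncanonical branch (0.68 ± 0.16, 0.012). None of these 4 passed over the C1q and Arg1 clusters alone, at -0.20, -1.04, -0.09 and 0.17 (edgeR adjusted p = 0.79, 0.75, 0.95 and 0.91). Between isotype + ABT-317 and isotype 0 of 23 were called, and the lowest p were those of Tnfaip3 (-0.33 ± 0.12, edgeR adjusted p = 0.84) and Nfkbiz (-0.28 ± 0.12, 0.95), which both passed with the reaction as a block (edgeR adjusted p = 0.036 and 0.020). Between the 2 groups given ABT-317, 1 of 23 was called (4.35%, beside 2.42% of all genes), Traf1 (0.95 ± 0.23, edgeR adjusted p = 0.050), which gave 0.84 over the C1q and Arg1 clusters alone (edgeR adjusted p = 0.061).

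Of the 30 DC maturation genes, 18 were tested in macrophage-like cells. Between CPI and isotype, 7 were higher, 3 were lower and 8 did not pass (55.6% called, beside 22.8% of all genes), with a median log2 fold change of -0.07. The calls with the lowest p were the transcription factor Irf1 (1.38 ± 0.15, edgeR adjusted p = 2.4e-05), the PD-1 ligand gene Pdcd1lg2 (3.46 ± 0.55, 0.00054), the costimulatory ligand Tnfsf9, which was lower (-1.25 ± 0.22, 0.0011), and the transcription factor Irf4 (3.57 ± 0.68, 0.002). Over the C1q and Arg1 clusters alone Irf1 held (1.56, edgeR adjusted p = 0.003) and Tnfsf9 did not (edgeR adjusted p = 0.13). Pdcd1lg2 and Irf4 fell below the count filter there, so they may have entered the test only through the CPI sums, where they are high. Genes that enter in this way favor a call. The calls of Pdcd1lg2 and Irf4, also in the contrasts below, and the 55.6% that includes them are therefore description only. Between CPI + ABT-317 and CPI, 2 were higher, 1 was lower and 15 did not pass (16.7% called, near the 14.5% of all genes). These were Irf4 (-3.11 ± 0.83, edgeR adjusted p = 0.023), Tnfsf9 (0.81 ± 0.22, 0.027) and Irf8 (0.82 ± 0.26, 0.048). In the C1q and Arg1 clusters alone Irf4 fell below the count filter, and Tnfsf9 and Irf8 gave 0.47 and -0.10 (edgeR adjusted p = 0.56 and 0.95). Between isotype + ABT-317 and isotype 0 of 18 were called, with the lowest p at the PD-L1 gene Cd274 (-0.33 ± 0.17, edgeR adjusted p = 1.0) and Ccl22 (1.30 ± 0.81, 1.0). Between the 2 groups given ABT-317, Irf1 (1.25 ± 0.15, edgeR adjusted p = 0.00065) and Cd274 (0.86 ± 0.17, 0.015) were higher and 16 did not pass (11.1% called, beside 2.42% of all genes). Both held over the C1q and Arg1 clusters alone, at 1.21 and 0.85 (edgeR adjusted p = 0.00021 and 0.0072). The change with ABT-317 under CPI minus that under isotype passed for 0 of the 18, with the lowest p at Cd274 (0.88 ± 0.25, edgeR adjusted p = 0.051) and Irf4 (-4.07 ± 1.28, 0.079), which both passed with the reaction as a block (edgeR adjusted p = 0.00079 and 0.048).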

How the data were processed

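Single-cell 5' gene expression and antibody libraries of 2 pooled MC38 tumor reactions were analysed. The authors deposited unnormalized UMI counts per feature and barcode, made with Cell Ranger 8.0.1 per the matrix headers (the labels name Cell Ranger 3.1.0 and GRCm38, mm10). The lymph node reactions were not used here, and 0 other sample columns were found.

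Barcodes with at least 200 genes and under 10% mitochondrial counts were kept. Hashtags were called present by a 2-component fit on log counts at a posterior of 0.5, and barcodes with several were left out of sums. Doublets were otherwise kept, and removing called doublets was an alternative. Cells were clustered on 2000 variable genes and 50 principal components (leidenalg 0.10.2, resolution 1.0), and DC-like barcodes were clustered again. A cluster took the name of its highest marker list where that list's mean log2 difference from the other cells was at least 1.0 (0.5 for DC-like sub-clusters), at least 3 markers were 1.5-fold up, and at least 1 marker, and no fewer than of any other list, was among its top 10 genes. UMIs were summed per class, treatment and reaction, and of the DC-like and macrophage-like classes chosen for testing only macrophage-like sums, which had at least 20 cells each, were tested (other classes were not), with edgeR 4.0.16 (R 4.3.3; TMM, filterByExpr, quasi-likelihood F test, Benjamini-Hochberg over 8229 genes, threshold 0.05), with all 8 sums in 1 model. Macrophage-like sums held 401353 to 15256167 UMIs, so the isotype sums are the most precise and the CPI sums the least.

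All 8 members were named. From each list at most 4 called genes with the lowest adjusted p were named or, with none called, the 2 with the lowest p, and for likeness the 3 genes with the highest mean correlation. Members and lists were chosen with earlier results of these data known. Alternatives were RLE scaling, no count filter, DESeq2 1.42.0, the reaction as a block, leaving out each sum, other hashtag rules, fewer than 2500 genes, no called doublets, resolution 0.5 and under 5% mitochondrial counts, and those added after seeing the data were a hashtag lead after centring, all barcodes of a class, the C1q and Arg1 clusters alone, and CPI + ABT-317 against isotype + ABT-317. Same-numbered sums share a droplet reaction, and their deviations from treatment means correlated at 0.0978 to 0.426 over the 6 pairs of treatments. On simulated data (7784 genes, CPI + ABT-317 against CPI), 35.1% of 2-fold and 81.6% of 4-fold changes were recovered with 4 false calls.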

Additional observations from a re-analysis of the deposited data

Results flagged for a closer look

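In macrophage-like cells, 3 of the 23 tested genes of the CD40 and NF-kB signaling list (13.04%, beside 6.46% of all genes) changed with ABT-317 differently under CPI and under isotype, by the interaction term of edgeR's quasi-likelihood test with Benjamini-Hochberg adjustment over all genes. For Traf5, an adaptor of the TNF receptor family, the change under CPI minus that under isotype was -2.44 ± 0.48 (SE) on the log2 scale (edgeR adjusted p = 0.0089), from -2.12 under CPI and 0.33 under isotype. For the subunit Rel it was -0.76 ± 0.20 (edgeR adjusted p = 0.037), from -0.82 and -0.06. For the adaptor Traf3 it was 0.75 ± 0.20 (edgeR adjusted p = 0.045), from 0.68 and -0.06. Over the C1q and Arg1 clusters alone the values were -1.38, -0.02 and 0.24, and none passed (edgeR adjusted p = 0.68, 1.0 and 0.87). The part of the cluster shares in these differences was not tested further.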

How the results depend on the processing

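Over 75 results, 1330 values under alternatives were computed. Of these, 1096 kept direction and side of the threshold (or stayed within the spread), 119 lost the threshold, 22 gained it, 45 moved and 48 reversed, and causes were not tested unless named. Without the count filter the CPI against isotype differences in Cd40 and Relb were 0.55 and 0.44 and no longer passed, and Il12b (-0.88) did, as it did (-1.26) between the groups given ABT-317. With the hashtag lead Cd40 and Relb gave 0.31 and 0.39, and Relb was lost with DESeq2 (0.60) and the centred lead (0.48). Over the C1q and Arg1 clusters, with fewer CPI cells, the CPI against isotype values were 1.15 (Cd40), 0.0534 (Relb), 0.0219 (Nfkb1), 1.35 (Nfkb2) and 1.74 (Il12b, reversed). There the reversed CPI + ABT-317 against CPI values were -0.15 (Cd40), 0.75 (Cd83), 0.32 (Relb), 0.25 (Nfkb1) and -0.10 (Irf8). Il12b in that contrast reversed to 0.15 (hashtag lead), 0.25 (centred), 0.0599 (under 2500 genes) and 0.0458 (resolution 0.5).

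With the reaction as a block, Nfkb2 passed between CPI + ABT-317 and CPI (-0.75), as did the differences of differences of Nfkb1 (-0.56) and Nfkb2 (-1.05) and Cd83 between the groups given ABT-317 (-0.56), and counts of called genes rose to 118 (ABT-317 alone), 1189 (difference of differences) and 649 (groups given ABT-317).

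These differences of differences reversed: Relb -0.0206 (RLE), -0.0205 (DESeq2), -0.0093 (block), -0.11 (hashtag lead), -0.14 (centred), -0.0757 (under 2500 genes) and -0.0245 (without doublets), Cd83 -0.10 (centred), Fscn1 -0.30 (hashtag lead), and Cd40 -0.0306 and Nfkb1 0.52 over the C1q and Arg1 clusters. The main value of Nfkb1, given above, was not near 0. Between the groups given ABT-317, Cd83 passed at -0.54 (no filter), -0.56 (DESeq2), -0.57 (5% mitochondrial) and -0.62 (centred), and Nfkb1 was lost at 0.38 (hashtag lead), 0.47 (centred), 0.60 (resolution 0.5) and 0.55 (C1q and Arg1 clusters).

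Called genes over the C1q and Arg1 clusters numbered 222, 26, 8 and 13 in the 4 planned contrasts. For ABT-317 alone they numbered 35 (no filter), 13 (DESeq2), 0 (hashtag lead), 0 (centred), 2 (under 2500 genes), 1 (resolution 0.5) and 2 (5% mitochondrial), and 318 between the groups given ABT-317 without the filter. The log2 ratio of mature DC-like to macrophage-like cells moved to 2.17 (hashtag lead) and 2.53 (all barcodes) for Cd40, -0.12 for Cd83 and 2.14 for Relb (hashtag lead), and 4.95 (hashtag lead), 5.60 (centred), 5.41 (5% mitochondrial) and 5.35 (all barcodes) for Il12b.

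Leaving out 1 sum each gave these ranges. CPI against isotype: Cd40 0.55 to 0.81, Cd83 -0.66 to -0.52, Relb 0.50 to 0.68, Il12b -0.94 to 0.24, Fscn1 -0.78 to 1.63. CPI + ABT-317 against CPI: Nfkb2 -1.08 to -0.41, Il12b -1.11 to 0.46, Fscn1 -1.35 to 0.98. ABT-317 alone: Cd40 -0.39 to 0.10, Il12b -0.89 to 1.05, Fscn1 -2.94 to 0.0602, Ccl22 -0.66 to 2.09. Difference of differences: Cd83 -0.0755 to 0.17, Relb -0.0945 to 0.0849, Nfkb2 -1.37 to -0.70, Il12b -1.50 to 0.76, Fscn1 -0.63 to 2.36. Groups given ABT-317: Cd40 0.96 to 1.45, Nfkb1 0.50 to 0.68, Il12b -1.94 to 0.0142. Called genes: 919 to 1858, 491 to 1165, 0 to 4, 204 to 516 and 49 to 211, in that order. Each reaction alone gave log2 ratios of -0.10 to 1.31 for Nfkb1, 1.85 to 3.10 for Nfkb2, 5.51 to 5.60 for Il12b, 6.96 to 9.20 for Fscn1 and 9.06 to 10.59 for Il4i1. No value could be had for Il12b without the first CPI sum (the other has 0 UMIs), for Fscn1 under CPI over the C1q and Arg1 clusters (0 UMIs) or for Il4i1 (below the filter).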

Other observations

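T-like cells entered no test, and values of Nfkb1 and Cd83 are given for them under CPI and isotype. Nfkb1 in T-like cells was at 467 and 477 CPM under CPI against 214 and 270 CPM under isotype, from 47 and 35 isotype cells. Cd83 was at 80.6 and 83.1 CPM under CPI against 173 and 249 CPM. These genes were picked after their values were seen, and the share of all genes without overlap in T-like cells was not computed. The macrophage list summed to 3867 and 4928 CPM over the T-like cells of all treatments. The part of such RNA in these values was not tested.

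In the unnamed cluster led by Slc8a1, Cd40 was at 153 and 1557 CPM in 7 and 4 CPI cells (2 and 16 UMIs) and at 114 and 124 CPM in 276 and 125 isotype cells, so the CPI value rests on the second reaction.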
